A study of Mus musculus with 11 samples.

Results

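miR-21a is 1 microRNA precursor of the mouse with 2 mature products, mmu-miR-21a-5p from its 5′ arm and mmu-miR-21a-3p from its 3′ arm. Both were chosen by name out of 1966 mature miRNAs whose reads were counted in 11 libraries of small RNA from mouse embryonic stem cells. The rule uses no measured value, but the choice was made with earlier results of these data known. Of those 1966, 1347 had a count in some library and 730, both miR-21a arms among them, passed the filter on low counts and were tested.

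The study compared the wild-type and the E518K form of DGCR8 with its absence. Induced E518K libraries came from clones 8, 13 and 15, which carry the vector pSB ET iE-FlagDGCR8-E518K, brought in together with the plasmid pCMV(CAT)-SB100X, are labelled DGCR8 E518K/E518K and were given 300 ng/mL doxycycline for 48 h. Induced KO libraries 1, 2 and 3 came from cells labelled DGCR8 -/-, not transfected, that received the same doxycycline. Induced wild-type libraries came from clones 10, 12 and 16, which carry pSB ET iE-FlagDGCR8-wt, brought in with the same second plasmid, are labelled DGCR8 wt/wt and were treated alike. Clone 8 of E518K and clone 10 of wild type each also gave 1 untreated library, which the study used to look for leaky expression from the vectors. The strain label, a line of Novus Biochemicals, was the same for all 11 libraries, all cells were grown without feeder cells in 2i medium with LIF, and DGCR8 in both vector groups was a Flag-tagged product of an introduced vector. The study's design text speaks of 3 independent clones per condition, but the 3 KO titles name 1 clone, 261, so the spread between KO libraries may be technical. The edgeR p-values use a spread pooled over the 5 groups, vector clones included.

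DGCR8 holds the RNA for the nuclease Drosha, and the pair, called the microprocessor, cuts the hairpin of a primary miRNA transcript out in the nucleus. Dicer then removes the loop, and one arm is usually kept in an Argonaute protein, where bases 2 to 8, the seed, pair with target mRNAs. miR-21 is among the best known miRNAs raised in tumours and in fibrosis. E518K changes an RNA-binding domain of DGCR8 and is known as a recurrent mutation in Wilms tumours of the kidney.

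The mature sequences, from RefSeq on GRCm38.p6, are shown because the 2 arms and the like-named miR-21b and miR-21c can be told apart only by their letters. Capitals mark the seed, and each is written 5′ to 3′.
miR-21a-5p: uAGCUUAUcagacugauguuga
miR-21a-3p: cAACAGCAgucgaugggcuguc
miR-21b: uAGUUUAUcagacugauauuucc
miR-21c: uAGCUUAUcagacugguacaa
Both miR-21a arms were 22 bases long and lay on the minus strand of chromosome 11, miR-21a-5p at chr11:86584120-86584141 and miR-21a-3p at chr11:86584082-86584103. The seed of miR-21a-5p was shared by 1 other mature miRNA of the RefSeq table, miR-21c, which lay on chromosome 8. No other mature miRNA there shared the seed of miR-21a-3p. Counted from 1 at the 5′ end of miR-21a-5p, miR-21c differed by A16G, G18A, U19C, U20A and G21A, so its first 15 bases were those of miR-21a-5p and a read of those bases alone would match both. miR-21b, from chromosome 3, differed by C4U, G18A, G21U and A22C, and the first of these lies in the seed.

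The 92-base hairpin at chr11:86584067-86584158 lay inside the last exon, exon 12, and the 3′ UTR of Vmp1, a gene for a membrane protein of autophagy, on the same strand and 202 bases from that gene's 3′ end in GENCODE M21. No other annotated miRNA gene lay within 50 kb. Folded with RNAfold, the hairpin had a free energy of -46.2 kcal/mol, 19 of the 22 bases of miR-21a-5p paired with the 3′ arm, and all 7 seed bases were among them. The 16 bases between the arms equalled the median of 644 mouse hairpins with 1 annotated mature form on each arm. They held UGU from the second base on, a motif of the apical loop that DGCR8 is known to bind. UGU stood between the arms, on the hairpin's own strand, in 203 of those 644 hairpins (31.52%). miR-21a-5p also carries CAGAC, known in its human counterpart as the part of the stem bound by SMAD proteins after TGF-β or BMP signalling. CAGAC, searched on the mature strand alone, stood at bases 9 to 13, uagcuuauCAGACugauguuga, and was present in 28 of 1679 mature names (1.67%).

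The libraries differed widely in depth: 1050564 to 1797240 counts in induced E518K, 166676 to 208846 in KO, 3394216 to 6128734 in induced wild type, 264507 in untreated E518K and 1421247 in untreated wild type. Depth and genotype therefore cannot be told apart. The 8 embryonic stem cell marker miRNAs, most of them of the miR-290 cluster, summed to 29996 to 34693 TMM-scaled CPM (counts set to a common library size) in induced E518K, 93.1 to 220 in KO and 78530 to 103704 in induced wild type. All 8 were detected in every induced E518K and wild-type library, but only 4 or 5 in KO, where miR-302a-3p, miR-302b-3p and miR-302d-3p were at 0. The lower sum in E518K than in wild type came largely through miR-293-3p. It had 4666, 3270 and 5555 CPM in E518K clones 8, 13 and 15. In wild-type clones 10, 12 and 16 it had 51932, 60952 and 45468 CPM. miR-290a-5p, miR-302a-3p, miR-302b-3p and miR-302d-3p were lower in E518K too, while miR-291a-3p, miR-294-3p and miR-295-3p overlapped between these groups. DGCR8 mRNA is not measured in small RNA libraries, and these markers are themselves made by the microprocessor, so in KO their level checks the label and not the cell type. Fewer cells of a type and less RNA per cell cannot be told apart in such bulk samples.

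miR-21a-5p was abundant in all 11 libraries. It had 8438, 3079 and 7088 counts in induced E518K clones 8, 13 and 15, 9778, 11543 and 9795 in KO libraries 1, 2 and 3, and 28079, 39442 and 64606 in induced wild-type clones 10, 12 and 16. The untreated libraries held 9348 counts in E518K clone 8 and 12348 in wild-type clone 10. Raw counts in KO thus exceeded those of every induced E518K library, although the KO libraries were the shallowest of the series.

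miR-21a-3p was close to the limit of detection everywhere. Its counts were 2, 0 and 0 in induced E518K, 0, 2 and 0 in KO and 2, 8 and 18 in induced wild type, with 0 in untreated E518K and 2 in untreated wild type. As 90.3% of all counts from 1 to 40 were even, as if a small RNA usually gave 2 counts, a count of 0 was taken to allow up to 6 counts, or 3 small RNAs, per library. Wild-type clones 12 and 16 were the libraries in which miR-21a-3p stood above that floor. It passed the filter on low counts through KO library 2, where 2 counts weigh much in a shallow library, and was not tested without it.

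**Figure D1:**
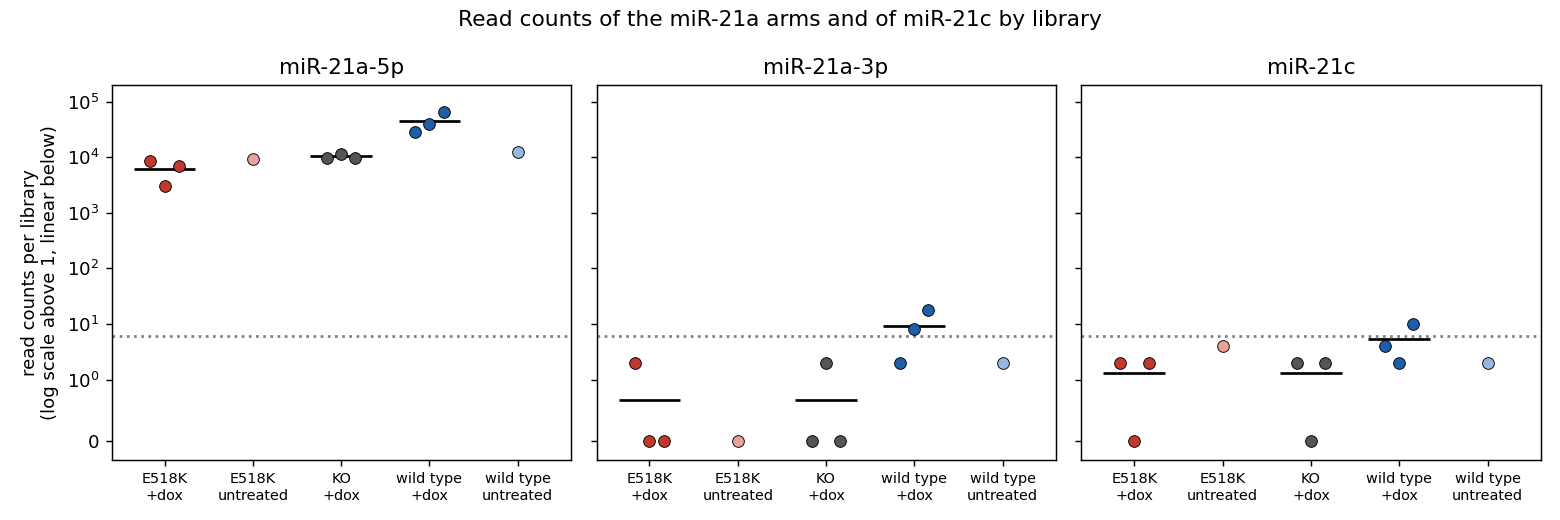
Read counts per library of miR-21a-5p, miR-21a-3p and miR-21c (log axis above 1, linear below; points are libraries, bars group means, the dotted line the floor of 6 counts). miR-21a-5p had 3079 to 64606 counts, while miR-21a-3p passed the floor in wild-type clones 12 and 16 and miR-21c in wild-type clone 16.

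The arms were therefore very unequal. In induced wild-type clones 10, 12 and 16, miR-21a-5p outnumbered miR-21a-3p by 14040, 4930 and 3589 to 1. miR-21a-3p made up 0.00790% ± 0.0137 of the counts of both arms in induced E518K, 0.00577% ± 0.010002 in KO and 0.0184% ± 0.0105 in induced wild type (SD, n = 3 each). From summed counts the share was 0.0107% in E518K (95% exact interval 0.000272 to 0.0599%), 0.00643% in KO (0.000163 to 0.0358%) and 0.0212% in wild type (0.0116 to 0.0355%), with counts divided by 2 for the intervals, which cover counting error only. These intervals overlapped. In two-sided exact permutation tests p was 0.3 for E518K against wild type, 0.2 for KO against wild type and 1 for E518K against KO (adjusted over the 3 tests 0.45, 0.45 and 1), and the smallest p that 3 against 3 libraries allow is 0.1. As 0.1 is above the threshold of 0.05, these tests could not have called a difference in arm share at any depth. No conclusion on arm share is drawn from them.

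With induced E518K, miR-21a-5p was lower than with induced wild-type DGCR8. Its level was 5523, 2561 and 7142 CPM in E518K clones 8, 13 and 15, against 13782, 11978 and 11979 CPM in wild-type clones 10, 12 and 16. The groups did not overlap, as was the case for 64.5% of all tested miRNAs in this comparison, and clone 13 was the lowest of the E518K clones. The means were 5075 ± 2323 CPM in E518K and 12579 ± 1041 CPM in wild type (SD, n = 3 each). The log2 change was -1.31 ± 0.40 (SE), 2.48-fold lower in E518K, with an adjusted p of 0.0023 by edgeR's quasi-likelihood test. In the same test 63.6% of tested miRNAs were called, 28.2% higher and 35.3% lower, and 475 of 730 had a higher log2 change than miR-21a-5p. The median change of all tested miRNAs was -0.14, and miR-21a-5p stood at -1.17 relative to it on the log2 scale. The call was lost without wild-type clone 16, at a log2 change of -0.55 and an edgeR adjusted p of 0.37; the difference from the median was then -1.28. For miR-21a-3p, with so few counts, the log2 change was -2.02 ± 1.46 (edgeR adjusted p 0.21); it was -4.89 without E518K clone 8 and -1.05 without wild-type clone 16.

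In KO cells miR-21a-5p stayed among the most abundant names in the table. It took 4.68, 6.93 and 5.79% of all miRNA counts in KO libraries 1, 2 and 3, against 0.827, 0.644 and 1.09% in wild-type clones 10, 12 and 16. Within each library, ranked by counts, it stood 4th, 3rd and 4th in KO and 12th, 14th and 14th in wild type. The names above it in KO were miR-5099, miR-1981-5p and, in libraries 1 and 3, miR-6539. In induced E518K clones 8, 13 and 15 it stood 30th, 45th and 24th, with 0.469, 0.293 and 0.4997% of the counts. In the untreated libraries it stood 8th in E518K clone 8, with 3.53% of the counts, and 12th in wild-type clone 10, with 0.869%. The shares of the groups did not overlap, which held for 60% of tested miRNAs between E518K and wild type, 78.6% between KO and wild type and 68.6% between E518K and KO. miR-292a-5p and miR-292b-3p had nearly equal shares, 19.4331 and 19.4326% in induced wild-type clone 10 and 12.0185 and 12.0216% in induced E518K clone 8. If the same reads stood under both names, share and rank of miR-21a-5p were understated there, and less so in KO. Whether they did was not tested.

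By TMM scaling the level was 20855, 34663 and 29898 CPM in KO libraries 1, 2 and 3, all above the 11978 to 13782 CPM of wild type. The means were 28472 ± 7014 CPM in KO and 12579 ± 1041 CPM in wild type (SD, n = 3 each). The log2 change was 1.18 ± 0.40 (edgeR adjusted p 0.0040), 2.26-fold higher in KO, where 88.4% of tested miRNAs were called, 30% higher and 58.4% lower. Without KO library 1 it was 0.68 and no longer called (edgeR adjusted p 0.086), with halved counts it was 0.42 (edgeR adjusted p 0.31), and without KO library 3 it was 1.80. The groups of 84.9% of tested miRNAs did not overlap. The median change of all tested miRNAs was -3.54, so that miR-21a-5p stood 4.72 above it on the log2 scale. miR-21a-3p had a log2 change of -0.36 ± 1.62 (edgeR adjusted p 0.84), which was 1.12 with total counts.

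The direction of that change depended on the scale. On the authors' own scale, pRPM, in which the libraries of a group share 1 total, miR-21a-5p had 4928 ± 954 in KO and 8007 ± 2100 in wild type (SD, n = 3 each), a log2 change of -0.70 ± 0.39 (edgeR adjusted p 0.079). The pRPM totals were 683476 in induced E518K, 85006 in KO and 938495 in induced wild type. Set against a list of miRNAs known to bypass the microprocessor, the DGCR8-independent list, miR-21a-5p had 149 ± 43.0 reads per 1000 reads of the list in KO and 5349 ± 142 in wild type. On that scale the log2 change was -5.17 ± 0.47 (edgeR adjusted p 1.2e-27). That list took 1.25 to 2.11% of counts in induced E518K, 35.1 to 43.2% in KO and 0.124 to 0.203% in induced wild type. The median of all tested miRNAs moved with the scale too, to -5.19 by pRPM and -9.30 by the list, and miR-21a-5p stayed 4.13 to 5.55 above the median under every alternative run.

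**Figure D2:**
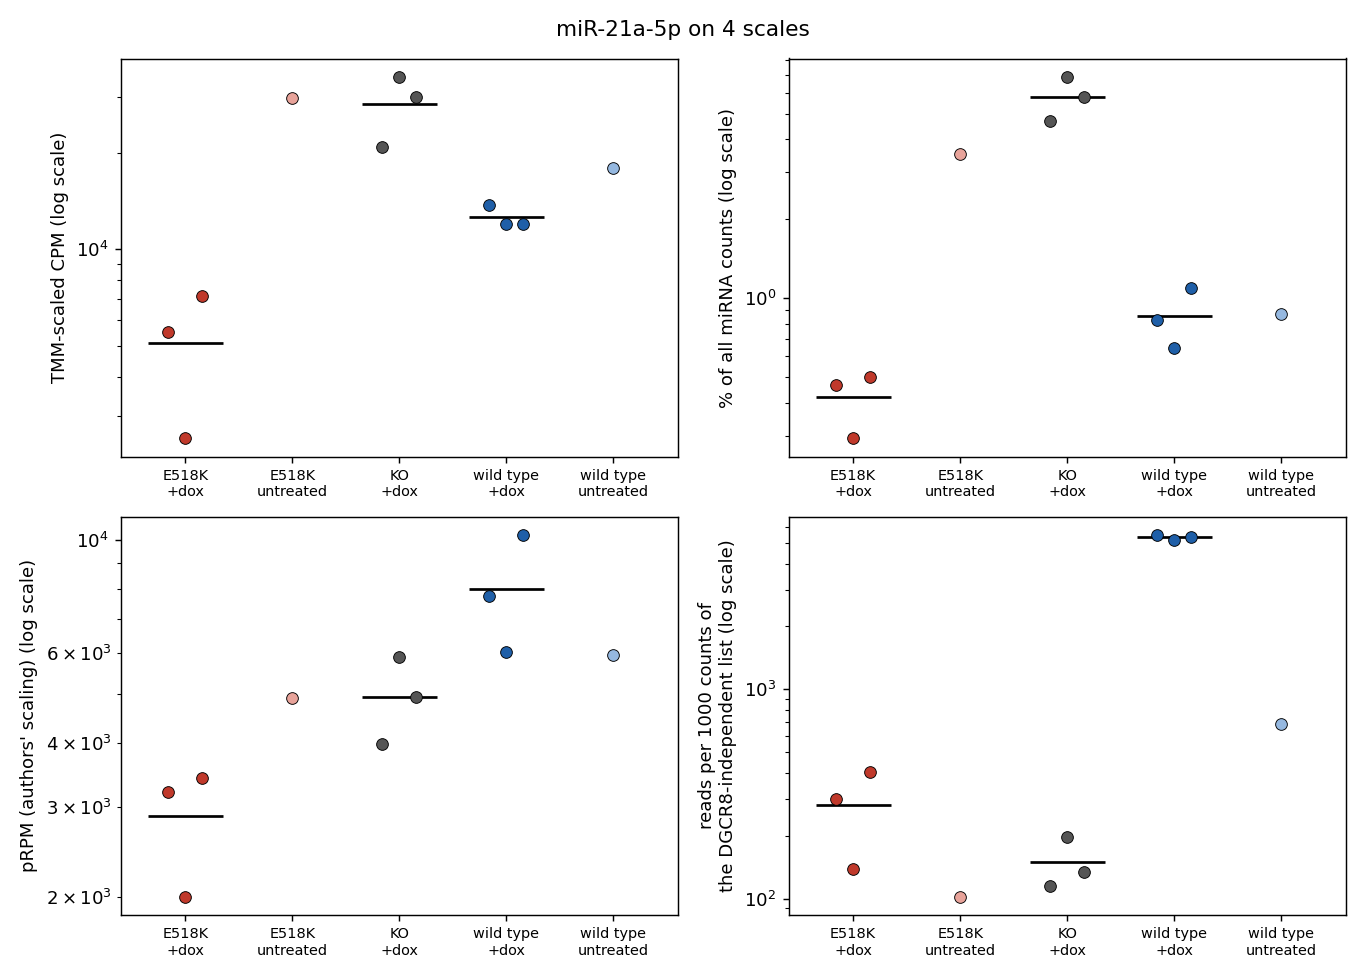
miR-21a-5p per library (points; bars are group means) as TMM-scaled CPM, as percent of all miRNA counts, as the authors' pRPM and per 1000 counts of the DGCR8-independent list, on log axes. KO lay above induced wild type on the first 2 scales, with 28472 against 12579 CPM, and below it per 1000 list counts, with 149 against 5349; induced E518K lay below wild type on all 4.

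Against KO, induced E518K had less miR-21a-5p: 5075 ± 2323 CPM in E518K and 28472 ± 7014 CPM in KO (SD, n = 3 each). The log2 change was -2.49 ± 0.41 (edgeR adjusted p 1.0e-08), 5.61-fold lower in E518K, where 68.1% of tested miRNAs were called, 41.9% higher and 26.2% lower. The groups did not overlap, which held for 67.5% of tested miRNAs. The median of all tested miRNAs was 1.35, and miR-21a-5p stood at -3.83 relative to it on the log2 scale. By pRPM the log2 change was -0.78 (edgeR adjusted p 0.071), and by the list of DGCR8-independent miRNAs it was 0.91 (edgeR adjusted p 0.035), that is, higher in E518K. Its distance from the median kept its sign, from -5.03 to -3.23 under the alternatives run. Scaling also moved the calls of all miRNAs: 206 higher and 258 lower for E518K against wild type became 7 and 510 with the list, 219 and 426 for KO against wild type became 12 and 560, and 306 and 191 for E518K against KO became 447 and 6. With total counts the last split was 250 and 249, and by pRPM it was 380 and 61.

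**Figure D3:**
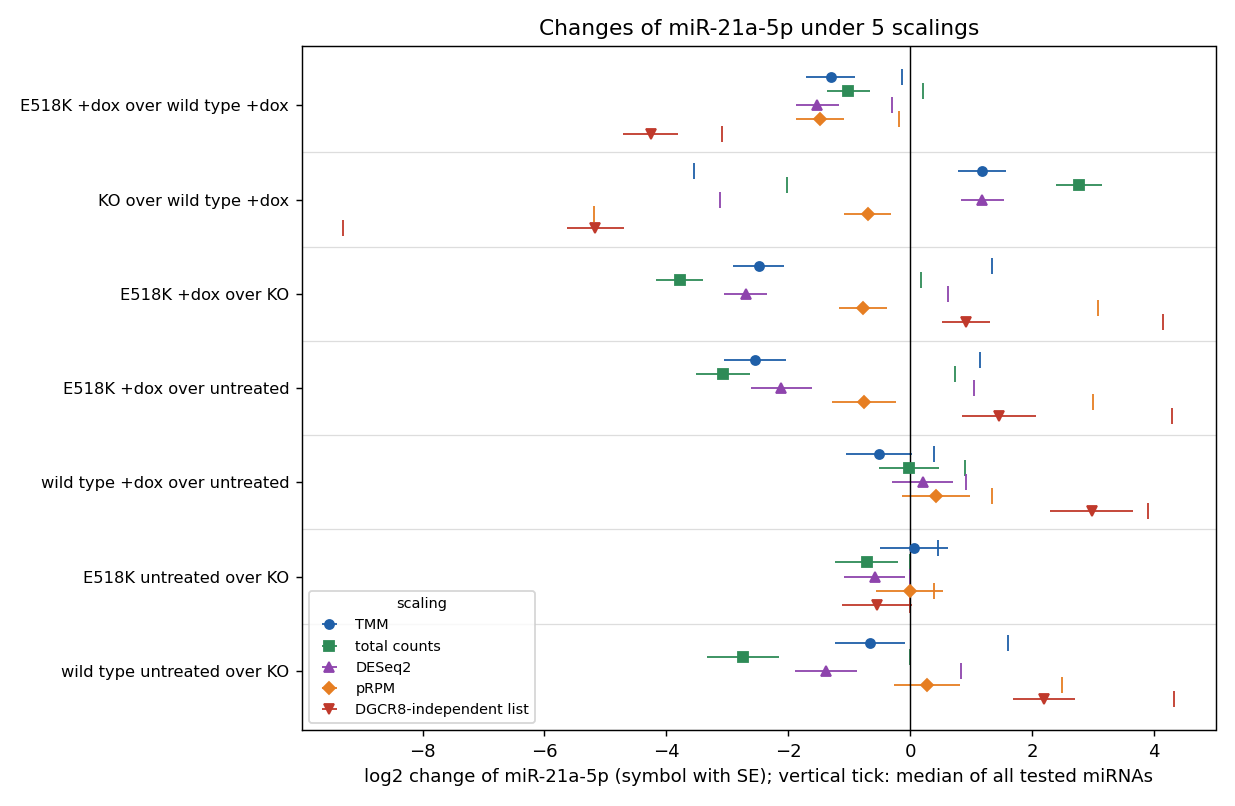
Log2 change of miR-21a-5p in 7 comparisons (rows) under 5 scalings (symbols, with SE); vertical ticks are the median change of all tested miRNAs. E518K over wild type was below 0 under all 5, KO over wild type ran from 2.77 with total counts to -5.17 with the DGCR8-independent list, and miR-21a-5p lay on the same side of the ticks under all 5 in each of these comparisons.

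Doxycycline was followed by less miR-21a-5p with the E518K vector. The level was 5075 ± 2323 CPM in the induced E518K clones (SD, n = 3), against 29713 CPM in the 1 untreated library, of clone 8; within clone 8 it was 5523 CPM induced and 29713 CPM untreated. The log2 change was -2.55 ± 0.50 (edgeR adjusted p 3.7e-06), 5.85-fold lower in induced cells, where 52.7% of tested miRNAs were called, 28.4% higher and 24.4% lower. By pRPM it was -0.77 (edgeR adjusted p 0.21), and by the DGCR8-independent list it was 1.45 (edgeR adjusted p 0.031). With the wild-type vector the level was 12579 ± 1041 CPM in induced clones (SD, n = 3), against 18011 CPM in untreated clone 10, whose own induced library had 13782 CPM. The log2 change was -0.52 ± 0.54 (edgeR adjusted p 0.47; 34.8% of tested miRNAs were called, 15.9% higher and 18.9% lower), and by the list it was 2.97 (edgeR adjusted p 2.6e-05). The difference between the doxycycline effects, wild type minus E518K, was 2.03 ± 0.80 on the log2 scale with an edgeR adjusted p of 0.051, where 21.5% of tested miRNAs were called, 4.11% higher and 17.4% lower; it missed the threshold of 0.05, and it was 0.75 (edgeR adjusted p 0.66) without wild-type clone 16. In each of these comparisons the untreated group was 1 library, assumed to vary like the others.

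Neither untreated library differed from KO in miR-21a-5p past the threshold, with 1 library each. Untreated E518K had 29713 CPM and KO 28472 ± 7014 CPM, a log2 difference of 0.06 ± 0.55 (edgeR adjusted p 1; 15.3% of tested miRNAs were called, 15.2% higher and 0.137% lower). Untreated wild type had 18011 CPM, a log2 difference from KO of -0.66 ± 0.58 (edgeR adjusted p 0.32; 56.7% were called, 43.3% higher and 13.4% lower). That difference was called with total counts, at -2.74, without KO library 2, at -1.77, and without KO library 3, at -1.81, and was 2.20 with the DGCR8-independent list. Ordered by CPM, untreated E518K came first, then KO, untreated wild type, induced wild type and induced E518K, and of these neighbours only induced E518K and induced wild type differed in the test. The comparisons above share libraries: KO and induced wild type each serve in several, so their results are not independent.

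The other names of the family added little. miR-21c, which has the same seed, had 2, 0 and 2 counts in induced E518K, 2, 0 and 2 in KO and 4, 2 and 10 in induced wild type, with 4 in untreated E518K and 2 in untreated wild type. None of its changes passed the test, and its log2 change was -0.41 ± 1.32 for E518K against wild type (edgeR adjusted p 0.79). miR-21b had 0 counts in all 11 libraries. No other name had counts within 2% of those of miR-21a-5p in every library.

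The miRNAs nearest to miR-21a-5p in profile were miR-143-3p, miR-455-5p, miR-181b-5p, miR-99b-5p and miR-1224-5p. Likeness was the root-mean-square difference of log2 CPM over the 11 libraries, each profile centred on its own mean; it was 0.58 for miR-143-3p, 0.72 for miR-455-5p, 0.73 for miR-181b-5p, 0.75 for miR-99b-5p and 0.79 for miR-1224-5p. Pearson's r with miR-21a-5p over the 11 libraries was 0.92, 0.81, 0.77, 0.75 and 0.77 in that order; the libraries share groups, depth and scaling factors, so r is a description. miR-1224-5p, a member of the DGCR8-independent list, never exceeded 10 counts. Its log2 change for E518K against wild type was 0.60 (edgeR adjusted p 0.56), where that of miR-21a-5p was -1.31. In induced E518K clones 8, 13 and 15, miR-455-5p had 18, 10 and 14 counts and miR-181b-5p 22, 4 and 16. miR-143-3p, a miRNA best known from smooth muscle and other mesenchymal cells, had 551, 320 and 724 CPM in induced E518K, 3805, 5471 and 4456 CPM in KO and 4098, 2673 and 2310 CPM in induced wild type. Its log2 change was -2.51 for E518K against wild type (edgeR adjusted p 2.5e-09) and 0.60 for KO against wild type (edgeR adjusted p 0.12), where it was 2.23 with total counts, -1.24 by pRPM and -5.73 by the DGCR8-independent list. By that list it was -5.44 for E518K against wild type. Relative to the counts of miR-21a-5p, which needs no scaling, miR-143-3p came to 9.98, 12.5 and 10.1% in induced E518K, 18.2, 15.8 and 14.9% in KO and 29.7, 22.3 and 19.3% in induced wild type, so the profiles were alike but not the same. The profiles nearest to miR-21a-3p were those of miR-1931, miR-1969, miR-193a-3p, miR-142b and miR-142a-3p, at 0.60 to 0.77, and they rest on at most 18 counts of miR-21a-3p in a library. miR-1931 itself never exceeded 6 counts, the floor. miR-142b and miR-142a-3p had nearly equal levels, with means of 83.3 and 83.4 CPM, and may not be separate neighbours.

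**Figure D4:**
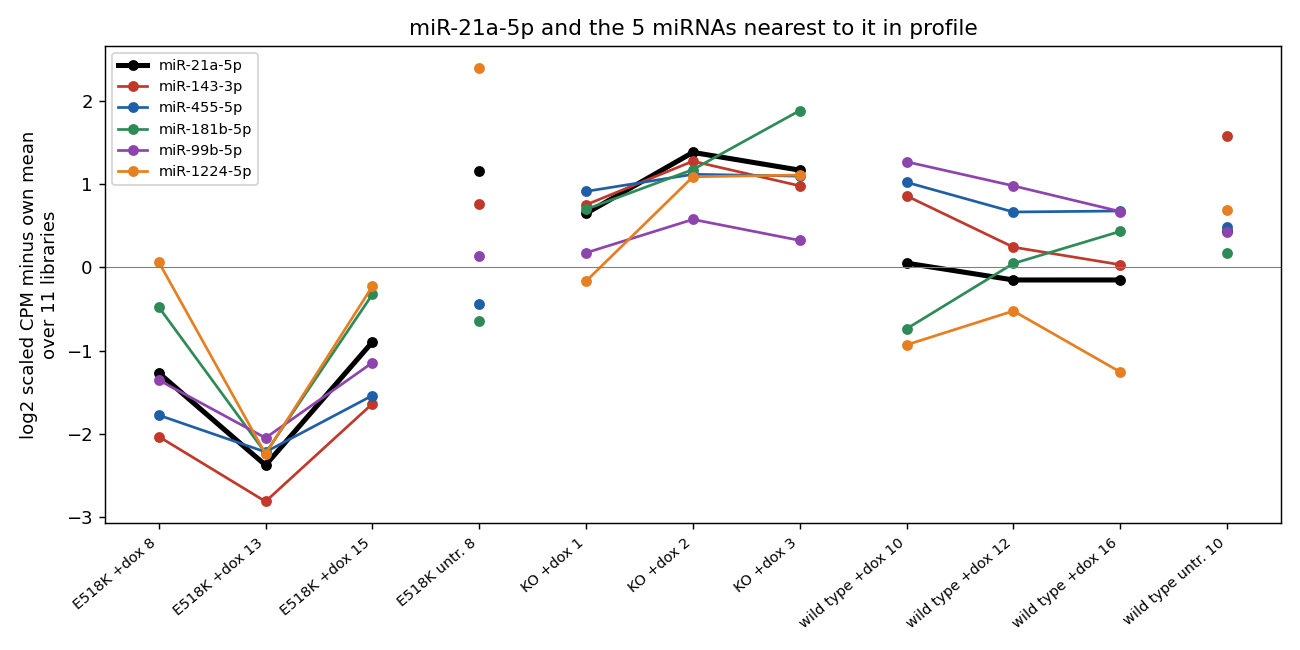
Log2 CPM of miR-21a-5p (black) and of the 5 miRNAs nearest to it, each minus its own mean over the 11 libraries; lines join libraries of a group for the eye only. All 6 were lowest in induced E518K clone 13, and they differ in induced wild type, where miR-99b-5p lies above miR-21a-5p and miR-1224-5p below it.

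Markers of other cell types were counted beside these results. The 6 miRNAs listed for fibroblasts or other mesenchymal cells, in which miR-21 is also abundant, summed to 1926 to 2843 CPM in induced E518K, 6544 to 10090 CPM in KO and 3663 to 5334 CPM in induced wild type, with 8401 CPM in untreated E518K and 7942 CPM in untreated wild type. At least 5 of the 6 were detected in every library. The sum was lower in E518K than in wild type, as miR-21a-5p was, through the abundant miR-143-3p. The 5 others summed to 2292, 1606 and 1988 CPM in E518K clones 8, 13 and 15, against 1235, 1519 and 1354 CPM in wild-type clones 10, 12 and 16. Their members did not move alike. miR-145a-5p was lower too, at 3.93, 2.50 and 10.1 CPM (6, 3 and 10 counts) in those E518K clones. In those wild-type clones it had 89.3, 97.8 and 68.4 CPM. miR-199a-5p stood higher, at 730, 439 and 697 CPM in E518K against 372, 415 and 309 CPM in wild type. That rise was not called (log2 change 0.77, edgeR adjusted p 0.065), and it was -2.19 by the DGCR8-independent list. In KO libraries 1, 2 and 3 these 5 summed to 2739, 4619 and 3730 CPM, with 4571 CPM in untreated E518K and 1174 CPM in untreated wild type. The sums were made on the TMM scale only, and abundant members turned with the scale. For KO against wild type, miR-143-3p had a log2 change of 0.60 by TMM, but -5.73 by the DGCR8-independent list. For miR-199a-5p these were 1.97 and -4.39. The marker sums in KO were therefore not read as a measure of cell type. The part of mesenchymal cells in the level of miR-21a-5p was not tested. The 6 blood cell markers summed to 313 to 446 CPM in induced E518K, 30.5 to 99.1 CPM in KO and 193 to 394 CPM in induced wild type. Nearly all of it came from miR-142a-3p, miR-142a-5p and miR-150-5p. miR-223-3p was at 0 in all libraries, and miR-451a and miR-144-3p never exceeded 4 and 2 counts, under the floor of 6.

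**Figure D5:**
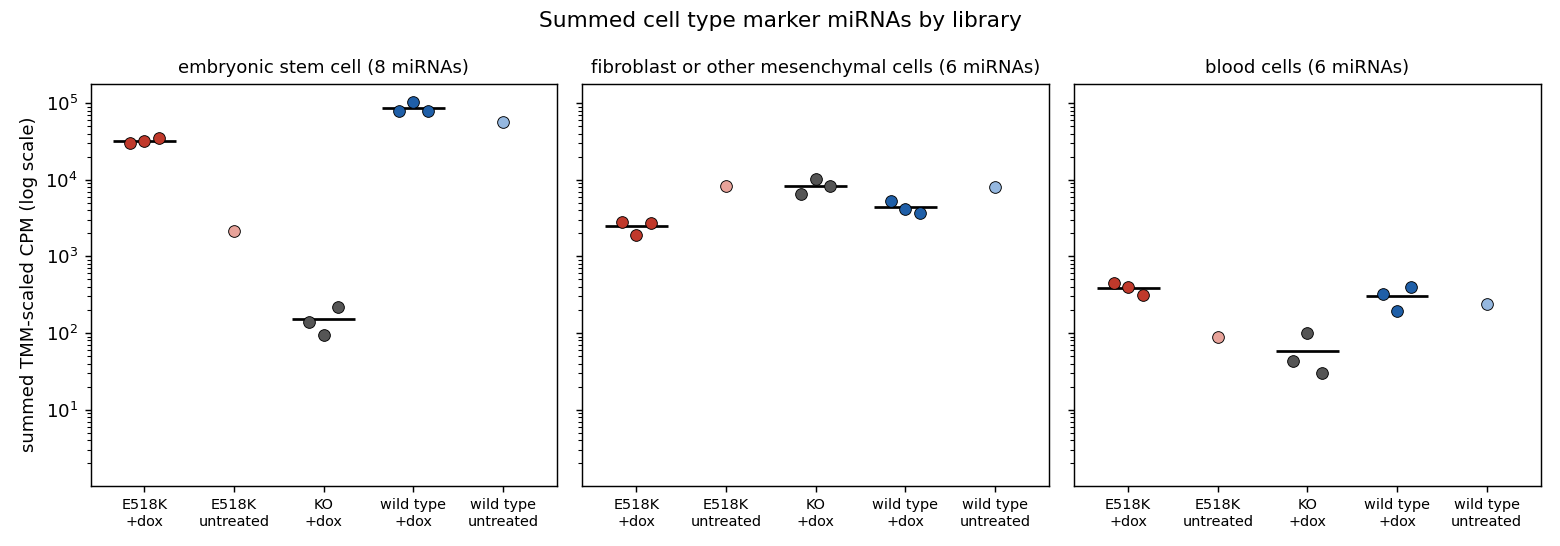
Summed TMM-scaled CPM of 8 embryonic stem cell, 6 mesenchymal and 6 blood cell marker miRNAs by library (points; bars are group means; log axes). The stem cell sum was 93.1 to 220 in KO and 78530 to 103704 in induced wild type, while the mesenchymal sum was 6544 to 10090 in KO and 3663 to 5334 in induced wild type.

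On the TMM scale, among the 13 other tested miRNAs that carry CAGAC, 5 were higher and 1 lower in induced E518K than in wild type and 7 did not pass (median log2 change 0.89, against -0.14 for all tested, of which 28.2% were higher and 35.3% lower). In KO against wild type 8 were higher and 2 lower (median 3.73, against -3.54 for all, of which 30% were higher and 58.4% lower). Against KO, 1 was higher and 7 were lower in E518K (median -1.78, against 1.35 for all, of which 41.9% were higher and 26.2% lower). These counts turn with the scale: by the DGCR8-independent list 1 was higher and 7 were lower in E518K than in wild type, 2 and 7 in KO than in wild type, and 3 and 0 in E518K than in KO. The most abundant of them was miR-199a-5p, another miRNA of mesenchymal cells, at 622 ± 159 CPM in E518K, 1428 ± 333 CPM in KO and 365 ± 53.1 CPM in wild type (SD, n = 3 each). By TMM it rose in KO over wild type by 1.97 on the log2 scale (edgeR adjusted p 1.1e-06), which was -4.39 by the list, and its log2 change in E518K was 0.77 (edgeR adjusted p 0.065), where that of miR-21a-5p was -1.31. By TMM miR-129b-3p rose in E518K over wild type by 1.40 (edgeR adjusted p 0.0026), which was -1.54 by the list. Unlike miR-199a-5p, it was lower in KO than in wild type, at -2.96 by TMM (edgeR adjusted p 8.2e-07) and -9.26 by the list. By TMM miR-344d-3p rose in KO over wild type by 8.11 (edgeR adjusted p 1.9e-26), which was 1.95 by the list. Its mean was 166 CPM in KO but 0.371 ± 0.642 CPM in wild type (SD), under the floor of 1.11 to 2.94 CPM there. The size of that rise is therefore uncertain.

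A pair of other lists was set beside miR-21a-5p. Of 14 tested miRNAs known to bypass the microprocessor, 12 were higher in E518K and 13 in KO than in wild type by TMM, and 0 were lower (medians 2.95 and 5.07; of all tested, 28.2% were higher in E518K and 30% in KO). Against KO, 0 were higher and 12 lower in E518K (median -2.57; 26.2% of all tested were lower), which became 0 and 5 by pRPM. When they set the scale themselves, 1 was higher and 4 were lower in E518K than in wild type, 2 and 8 in KO than in wild type, and 3 and 1 in E518K than in KO. miR-1981-5p averaged 4165 ± 317 CPM in E518K, 112805 ± 23285 CPM in KO and 328 ± 92.3 CPM in wild type, and miR-1983 averaged 4097 ± 587 CPM in E518K, 16592 ± 5317 CPM in KO and 441 ± 60.8 CPM in wild type (SD, n = 3 each). miR-1839-5p averaged 3371 ± 475 CPM in E518K, 20615 ± 4872 CPM in KO and 806 ± 170 CPM in wild type. On the TMM scale these 3 were called higher in E518K than in wild type, where miR-21a-5p was called lower. Of 16 miRNAs often described as raised in tumours together with miR-21, 6 were higher and 3 lower in E518K than in wild type, and 1 was higher and 13 lower in KO than in wild type by TMM (medians 0.67 and -7.25). Of all tested miRNAs 28.2% were higher and 35.3% lower in E518K, and 30% were higher and 58.4% lower in KO. By the DGCR8-independent list 0 were higher and 14 lower in E518K than in wild type, while in KO 12 to 16 of the 16 were lower under every scaling run. miR-182-5p, of the miR-183 cluster, averaged 148503 ± 36837 CPM in E518K, 693 ± 236 CPM in KO and 64389 ± 18665 CPM in wild type. miR-92a-3p averaged 25361 ± 4358 CPM in E518K, 45.2 ± 35.6 CPM in KO and 14535 ± 1863 CPM in wild type. miR-183-5p, of the same cluster as miR-182-5p, averaged 148802 ± 41619 CPM in E518K, 491 ± 139 CPM in KO and 37987 ± 8677 CPM in wild type. In KO against wild type the log2 change on the TMM scale was -6.54 for miR-182-5p, -6.28 for miR-183-5p and -8.35 for miR-92a-3p, against 1.18 for miR-21a-5p (edgeR adjusted p 4.7e-32, 1.0e-30, 4.7e-44 and 0.0040). By the list these changes were -12.92, -12.64 and -14.75, against -5.17 for miR-21a-5p, so miR-21a-5p lay above all 3 on either scale; the difference itself was not tested.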

How the data were processed

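Small RNA libraries (NEBNext Multiplex Small RNA kit, total RNA by peqGold TriFast, per the labels' protocols) gave 11 columns, grouped by title. The authors deposited read counts per mature miRNA, not normalized, and the same table in a scaled RPM unit that they call pRPM. STAR, bedtools and the build GRCm38.p6 are named, per the submitters' processing notes, while versions, the counting rule and the use of strand were not given in the sources used here. The deposited pRPM values gave whole reads, equal to the counts, in 100% of cases within 0.01 reads, so the count test was the main test. A file named for piRNA counts was identical to the pRPM file and was not used.

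Counts of all 11 libraries were fitted in 5 groups with edgeR 4.0.16 (R 4.3.3; TMM, robust quasi-likelihood, filterByExpr with minimum count 10 and minimum total 15), adjusted by Benjamini-Hochberg over 730 miRNAs, threshold 0.05; SE is the log2 change divided by the root of F. DESeq2 1.42.0, other scalings, no filter, halved counts, 2 groups alone and left-out libraries were alternatives. The code was tested on simulated data. Folding used RNAfold 2.7.2; of 1966 names 1675 matched the RefSeq table. Chi-square over its degrees of freedom between replicate libraries of induced E518K, KO and induced wild type was 17.9 to 490, so none was a copy of a replicate. Untreated libraries and libraries of different groups were not compared in this way. Without molecular identifiers, PCR copies of 1 molecule count as several reads, so intervals and floors cover counting error only.

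The named miRNAs were both arms, every miR-21 relative, the 5 nearest profiles per arm (log2 CPM, prior count 2) and the 3 most abundant members of each list. The choice of miR-21a and of the lists was made with earlier results of these data known.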

Additional observations from a re-analysis of the deposited data

How the results depend on the processing

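Values are log2 changes of miR-21a-5p unless named otherwise. E518K against wild type kept its sign in all 13 alternatives; leaving out 1 library gave -1.63 to -0.55. KO against wild type reversed by pRPM (-0.70) and by the DGCR8-independent list (-5.17) and lost its call with halved counts (0.42); without 1 library it ran from 0.68, not called without KO 1 (edgeR adjusted p 0.086), to 1.80. E518K against KO lost its call by pRPM (-0.78) and reversed by the list (0.91); without 1 library it ran from -3.11 to -1.96. Untreated wild type against KO gained a call with total counts (-2.74) and DESeq2 (-1.38), reversed by pRPM (0.27) and the list (2.20), and ran from -1.81 to -0.62 without 1 library, called without KO 2 or KO 3. Untreated E518K against KO, never called, reversed with total counts (-0.71), pRPM (-0.010), the list (-0.54) and DESeq2 (-0.58), was 0.97 with halved counts, and ran from -0.61 to 0.58 without 1 library. Induced against untreated wild type reversed by pRPM (0.43), the list (2.97), halved counts (0.0056) and DESeq2 (0.21), and ran from -0.42 to 0.083 without 1 library. Induced against untreated E518K lost its call by pRPM (-0.77) and reversed by the list (1.45); without 1 library it ran from -3.01 to -2.11. The difference of doxycycline effects was called with total counts (3.05), no filter (2.21), halved counts (2.72) and DESeq2 (2.33), and without wild-type 10 or 12 or E518K 13 or 15; without 1 library it ran from 0.75 to 2.96. miR-21a-3p in KO against wild type reversed with total counts (1.12) and ran from -0.33 to 0.68 without 1 library, reversed without KO 3, wild-type 12 or wild-type 16; by the list it was called (-6.30), as was E518K against wild type (-5.03), which ran from -4.89 to -1.05 without 1 library. With halved counts, DESeq2, 2 groups alone or without KO 2 it gave no adjusted p or failed the filter, and its other comparisons, at or under the floor, were not run. Counts of called miRNAs stayed within 1.5 times, and arm shares within 1 SD. The mesenchymal sum without miR-143-3p was an alternative chosen after seeing the data. The causes were not tested. No paired analysis was possible because the groups compared share at most 1 clone number, and KO numbers mark libraries of 1 clone.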

Other observations

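Raw counts of miR-21a-5p lay close together in the 5 libraries without induced DGCR8. They were 9348 in untreated E518K, 9778, 11543 and 9795 in KO and 12348 in untreated wild type, while the total miRNA counts of these libraries were 264507, 208846, 166676, 169316 and 1421247. Induced E518K clone 8 lay near them too, with 8438 counts at a total of 1797240, while clones 15 and 13 had 7088 and 3079. The closeness was thus not particular to libraries without induced DGCR8. The reason for it was not tested, and the amounts of RNA and the pooling of libraries were not given in the sources used here.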
